A study of Mus musculus with 6 samples.

Results

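The AP-1, Egr and Nr4a early genes are a set of 10 rapidly inducible genes, Fos, Fosl2, Jun, Junb, Egr1, Atf3, Ier5, Nr4a1, Nr4a2 and Nr4a3, followed here in the mouse uterus after progesterone. They were found by gene symbol among 18193 genes on the arrays and are covered by 21 probe sets, each a group of oligonucleotides that reads 1 transcript region. Each gene was represented by its brightest probe set on average over the 6 arrays, and the others were used to see whether they moved with it. Of the members, 5 had 1 probe set and 5 had several. No probe set listed a member among several symbols.

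The progesterone arrays came from female GATA2 f/f mice of mixed background whose ovaries had been removed at 6 weeks of age. At 8 weeks they received 1 mg of progesterone in 100 µl of sesame oil, and uterine RNA was taken 6 h later (3 arrays). The oil arrays came from mice that had the same genotype, surgery and age and received sesame oil alone, with the same 6 h interval (3 arrays). Both groups carried the floxed Gata2 allele, and the labels name no recombinase. RNA was pooled from 3 mice. Nothing says that the 3 arrays of a group came from separate pools, so each p-value reflects only how much these arrays differ among themselves, which may be technical spread.

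All values are log2 expression levels, so a difference of 1 is a doubling, and fold changes are progesterone over oil on that scale. The arrays had medians between 5.51 and 5.53, and the TrpnX control probe sets, which stand for background here, lay between 2.87 and 3.34. All 10 members were above that range on all 6 arrays, the lowest at 4.80. Of 7 uterine tissue markers 7 were measured, and the progesterone receptor gene Pgr, a gene known to fall after progesterone, had 10.48, 10.35 and 10.43 on the progesterone arrays, against 11.62, 11.46 and 11.35 on the oil arrays (2.08-fold lower, limma adjusted p = 0.00255). These markers moved both ways. At a limma adjusted p under 0.05, 3 were higher, Hoxa11 and Hoxa10 among them, and 2 lower, Pgr among them. Of all genes, 5.92% were higher and 5.83% lower. The neutrophil transcript S100a8 was at 12.02 and 12.48 on progesterone replicates 2 and 3 and at 11.82 on oil replicate 3, and between 4.34 and 5.01 on the other arrays. The liver transcript Alb was at 8.71 on oil replicate 3 and between 3.96 and 4.29 elsewhere. In whole tissue, fewer cells of a type and less RNA per cell cannot be told apart.

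Immediate early genes are transcribed within minutes of a stimulus without new protein synthesis, through factors such as SRF and CREB that are already bound or activated by kinases, and their RNAs decay quickly. Fos and Jun family proteins pair through leucine zippers to form AP-1, Egr1 is a zinc-finger factor that binds GC-rich sites, and the Nr4a genes encode orphan nuclear receptors that act without a known hormone. In the rodent uterus Fos and Egr1 are known for fast, transient responses to oestrogen, and Egr1 is needed for decidualization of the stroma in mice.

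The upstream sequences of the 2 members that passed the test, Nr4a3 and Ier5, are shown beside those of Nr4a1, Nr4a2 and Fos, because the Nr4a genes share a feature that most promoters lack. Each is the 250 bases before the gene's annotated start, read 5′ to 3′ on the gene's strand, from RefSeq on GRCm38.p6. Capitals mark TGACG, the core of a CREB and ATF site, or its reverse complement CGTCA. Nr4a3 is at chr4:48045055-48045304 on the plus strand, Nr4a1 at chr15:101266596-101266845 on the plus strand and Nr4a2 at chr2:57124004-57124253 on the minus strand. Fos is at chr12:85473640-85473889 on the plus strand and Ier5 at chr1:155099637-155099886 on the minus strand.
Nr4a3: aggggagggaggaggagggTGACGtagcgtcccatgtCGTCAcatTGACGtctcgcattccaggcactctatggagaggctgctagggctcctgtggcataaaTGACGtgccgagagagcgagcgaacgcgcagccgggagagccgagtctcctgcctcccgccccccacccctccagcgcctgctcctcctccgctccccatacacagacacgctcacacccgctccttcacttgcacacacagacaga
Nr4a1: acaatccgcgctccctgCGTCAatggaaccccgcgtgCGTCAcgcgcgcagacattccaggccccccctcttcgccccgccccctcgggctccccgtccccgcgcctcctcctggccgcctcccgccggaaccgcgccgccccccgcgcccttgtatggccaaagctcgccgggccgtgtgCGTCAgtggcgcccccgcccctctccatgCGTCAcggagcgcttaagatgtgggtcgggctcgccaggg
Nr4a2: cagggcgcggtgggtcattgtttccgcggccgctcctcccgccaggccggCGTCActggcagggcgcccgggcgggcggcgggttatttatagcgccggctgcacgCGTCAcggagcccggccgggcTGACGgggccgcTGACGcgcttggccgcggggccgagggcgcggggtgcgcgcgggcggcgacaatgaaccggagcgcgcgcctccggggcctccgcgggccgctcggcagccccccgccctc
Fos: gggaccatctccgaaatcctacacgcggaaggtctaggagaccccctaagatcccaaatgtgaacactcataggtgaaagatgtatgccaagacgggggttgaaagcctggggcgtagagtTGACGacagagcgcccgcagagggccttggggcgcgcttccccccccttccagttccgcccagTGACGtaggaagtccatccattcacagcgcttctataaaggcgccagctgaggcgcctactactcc
Ier5: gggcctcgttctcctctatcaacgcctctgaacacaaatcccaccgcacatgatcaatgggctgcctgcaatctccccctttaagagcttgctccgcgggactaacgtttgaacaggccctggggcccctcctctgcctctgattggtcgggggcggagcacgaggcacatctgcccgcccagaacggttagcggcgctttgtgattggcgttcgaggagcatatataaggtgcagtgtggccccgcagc

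TGACG occurred 4 times in each of the 3 Nr4a sequences, counting both strands. Counting the base before the start as -1, the matches lay between -231 and -143 in Nr4a3, between -233 and -36 in Nr4a1 and between -200 and -107 in Nr4a2. Among 32851 promoters of the same length, 45 (0.137%) held TGACG at least 4 times. The cut of 4 equals the count in the Nr4a sequences and was not set beforehand, so this share is a description and no test. Fos held it 2 times, the nearer match from -66 to -62, Junb and Atf3 held 1 match each, and Ier5, Jun and Fosl2 held none. In all, 6 of the 9 members with a sequence in the table held at least 1 match, against 17.8% of all promoters.

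The Egr motif GCGNGGGCG was found in 3 of 9 members, Fosl2, Nr4a1 and Nr4a2, against 4.70% of promoters, and TATAAA in Fos and Nr4a2, against 12.4%. Searched on both strands, the CArG box bound by SRF, the full CREB site TGACGTCA (which contains TGACG), the AP-1 site TGANTCA, the Nr4a site AAAGGTCA and the steroid receptor half-site AGAACA gave 0 of 9 members. Their shares among all promoters were 1.47%, 1.55%, 6.75%, 1.34% and 16.1%, in that order. These are matches of letters in a short window of 1 annotated start per gene. Sites outside the window or with other letters were not counted, so a count of 0 does not show that a member lacks such sites.

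**Figure D1:**
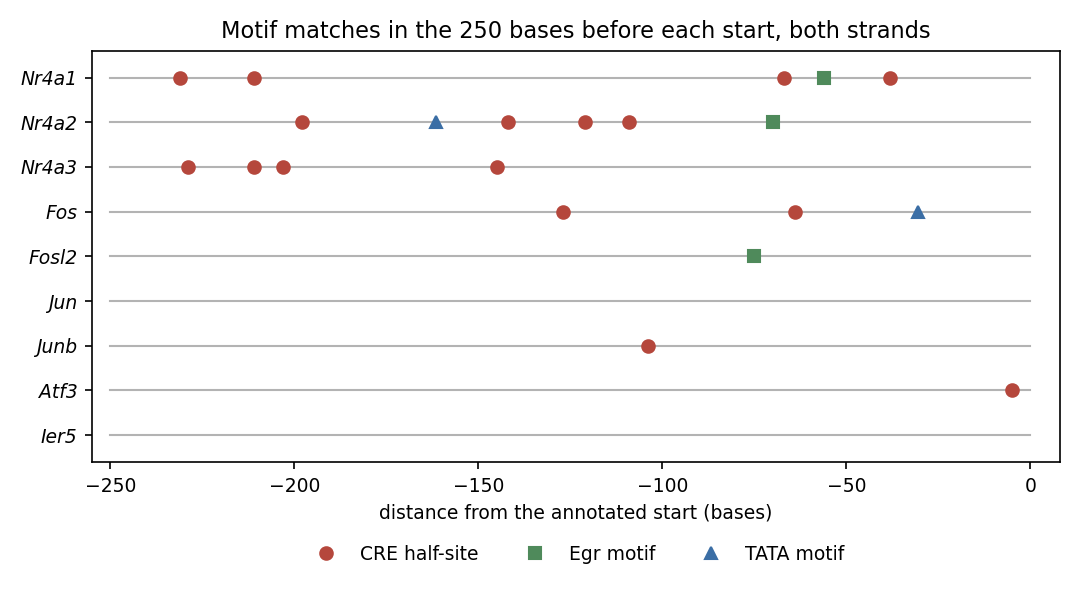
Motif matches in the 250 bases before the start of 9 members, with the distance from the start in bases on the horizontal axis, 1 gene per line and a symbol for each motif (TGACG is the CRE half-site, GCGNGGGCG the Egr motif and TATAAA the TATA motif). The 3 Nr4a genes carry 4 matches of TGACG each, and Ier5, Jun and Fosl2 carry none.

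At 6 h after progesterone, 2 of the 10 members rose and 0 fell. The risers were Nr4a3, by 2.91-fold, and Ier5, by 1.38-fold (limma, adjusted p under 0.05 over all genes). The probe set that stood for Nr4a3 was chosen through its progesterone values, so its call was not independent of the choice. The other Nr4a3 probe sets did not move with it. Among all 18193 genes, 5.92% rose and 5.83% fell. At an unadjusted p under 0.05 there were 4 members, 3 higher and 1 lower, against 26% of all genes (13.8% lower). The progesterone and oil arrays did not overlap for 4 members, Nr4a3, Ier5 and Nr4a2 above oil and Jun below it, against 30.4% of all genes (14.5% above and 15.9% below). The members' median log2 change was 0.36, against -0.02 over all genes, and 8 of 10 changes were positive. With 10 genes, the members' counts are a description and were not tested against these shares. With the replicate number as a block, Jun also passed as lower, giving 2 higher and 1 lower, against 7.6% and 8.49% of all genes.

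**Figure D2:**
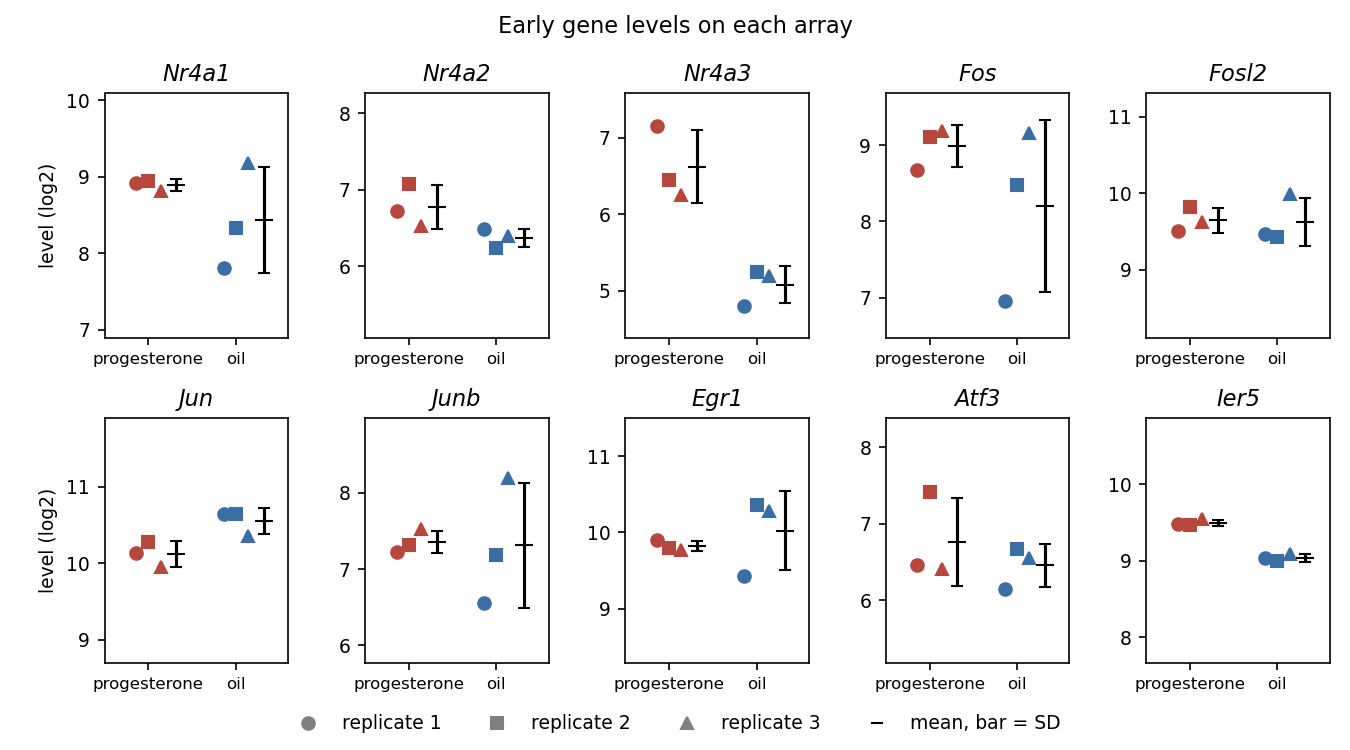
Log2 expression of the 10 members on each array, progesterone left of oil in each panel, with a symbol per array and, beside each group, its mean with SD (n = 3). The groups stand apart for Nr4a3, Ier5, Nr4a2 and Jun, and the oil points of Fos, Junb and Nr4a1 span more than the progesterone points.

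**Figure D3:**
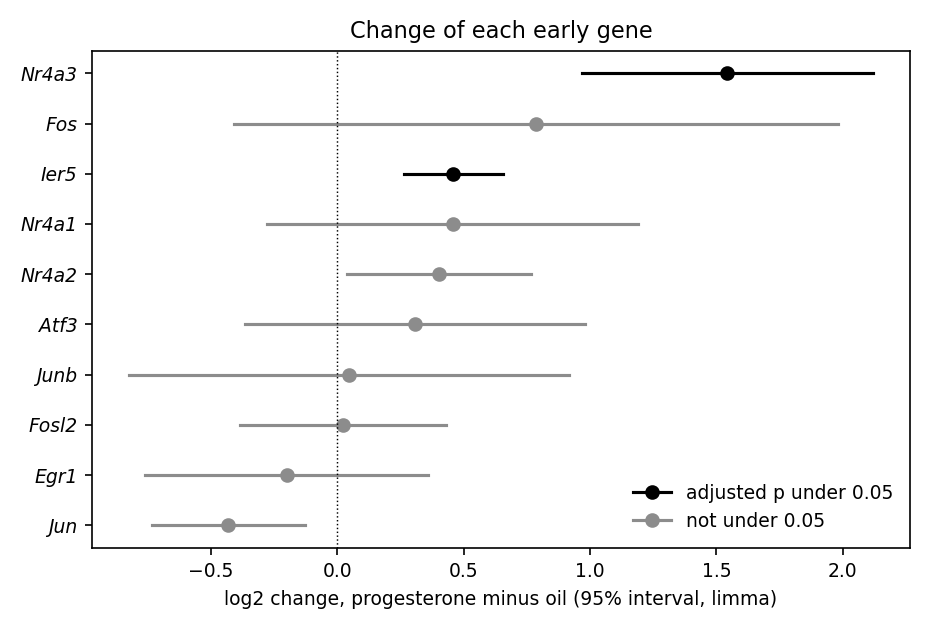
Log2 change of each member, progesterone minus oil, with its 95% interval from limma, on a horizontal log2 axis. Nr4a3 lies at 1.54 and Ier5 at 0.46, and the widest interval is that of Fos, from -0.41 to 1.98.

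Nr4a3, also called NOR-1, had the largest change of the 10 on the probe sets that stood for the genes. It stood at 7.16, 6.45 and 6.25 on the progesterone arrays, against 4.80, 5.24 and 5.19 on the oil arrays. Every progesterone value was above every oil value, and the gap between the groups was larger than the range of the oil arrays. The means were 6.62 ± 0.478 and 5.08 ± 0.241 (SD, n = 3 each), a log2 change of 1.54 with SE 0.244 and a 95% interval from 0.97 to 2.12 (limma adjusted p = 0.0109). It passed in each of the 6 fits that left out 1 array (log2 change 1.27 to 1.73, adjusted p 0.0117 to 0.0432). The other 2 Nr4a3 probe sets did not move with it. One read 5.16, 5.09 and 5.38 after progesterone, against 5.13, 5.47 and 5.31 after oil (log2 change -0.09, limma adjusted p = 0.750). The other read 3.26, 3.29 and 3.24 after progesterone, against 3.62, 3.18 and 3.22 after oil (-0.08, limma adjusted p = 0.811), which is at the level of the background controls. On the oil arrays alone the first of these had the higher mean (5.30, against 5.08 for the probe set that rose), so the probe set that stood for Nr4a3 was chosen through its progesterone values, and the choice was not independent of the change. The rise rests on 1 of 3 probe sets, and which transcript region each reads was not analysed here. The mean of the 3 probe sets gave a log2 change of 0.46 (limma adjusted p = 0.027), and an offset of 32 added before log2 gave 0.99 (0.026).

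Nr4a1, also called Nur77, is the family member best known for fast induction by growth factors and cAMP. It stood at 8.92, 8.95 and 8.81 on the progesterone arrays, against 7.80, 8.33 and 9.18 on the oil arrays. The progesterone arrays lay close together and inside the oil range, since oil replicate 3 was the highest of the 6. The means were 8.89 ± 0.0737 and 8.44 ± 0.696 (SD, n = 3 each), and the log2 change of 0.46 (95% interval -0.28 to 1.19) did not pass (limma adjusted p = 0.433). Its size rested on single oil arrays too: it was 0.14 without oil replicate 1 (limma adjusted p = 0.825) and 0.83 without oil replicate 3, where it passed (0.0393).

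Nr4a2, also called Nurr1, stood at 6.72, 7.08 and 6.52 on the progesterone arrays, against 6.48, 6.24 and 6.39 on the oil arrays. The groups did not overlap, though the lowest progesterone value was next to the highest oil value. The log2 change of 0.40 (95% interval 0.04 to 0.77) did not pass after adjustment (limma adjusted p = 0.151). Of its 5 other probe sets, 1 gave the same size of change (0.40, limma adjusted p = 0.155) with 5.71, 5.62 and 5.21 after progesterone, against 5.24, 5.02 and 5.09 after oil. The remaining 4 lay between -0.07 and 0.14.

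The change of Nr4a3 exceeded that of Nr4a1 by 1.09 and that of Nr4a2 by 1.14 on the log2 scale. An exact two-sided permutation test over the 20 splits of the 6 arrays gave p = 0.1 for both, the smallest value the design allows (adjusted p = 0.2 over 4 pairs compared). A difference between the Nr4a members is thus not shown at this sample size.

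Ier5, an immediate early gene whose product is known to act on heat shock factor 1, had the tightest replicates of the set. It stood at 9.48, 9.47 and 9.54 on the progesterone arrays, against 9.03, 8.99 and 9.09 on the oil arrays. The gap between the groups was several times the range within either. The means were 9.50 ± 0.0379 and 9.04 ± 0.0503 (SD, n = 3 each), a log2 change of 0.46 with SE 0.0832 and a 95% interval from 0.26 to 0.66 (limma adjusted p = 0.0165). Its residual SD was at percentile 1.97 of all genes. A second probe set read 6.80, 7.04 and 6.63 after progesterone, against 6.40, 6.54 and 6.39 after oil, also without overlap (log2 change 0.38, limma adjusted p = 0.114). The third read 5.30, 5.41 and 5.53 after progesterone, against 5.39, 5.36 and 5.27 after oil (0.07, limma adjusted p = 0.753). The call was kept in 3 of the 6 fits that left out 1 array and lost without oil replicate 1, oil replicate 2 or progesterone replicate 2 (limma adjusted p = 0.0643, 0.0750 and 0.0522, in that order), with the change between 0.44 and 0.49 in all 6.

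Jun, the main Jun-family partner in AP-1, was the 1 member whose progesterone arrays all lay below oil. It stood at 10.14, 10.28 and 9.95 on the progesterone arrays, against 10.65, 10.65 and 10.36 on the oil arrays. The log2 change of -0.43 (95% interval -0.73 to -0.13, 1.35-fold lower) had an unadjusted limma p of 0.0119 and did not pass after adjustment (adjusted p = 0.0776). With the replicate number as a block it passed (limma adjusted p = 0.0276), and it also passed when the lowest 50% of genes by level were left out (adjusted p = 0.0428). The second Jun probe set read 8.96, 9.11 and 8.91 after progesterone, against 9.23, 9.30 and 9.08 after oil, in the same direction with a change of -0.21 (limma adjusted p = 0.303).

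Junb, a Jun relative that often restrains Jun in AP-1 dimers, stood at 7.23, 7.32 and 7.52 on the progesterone arrays, against 6.56, 7.18 and 8.19 on the oil arrays. The progesterone values lay within the oil values, which spanned 1.63. The log2 change was 0.05 (95% interval -0.82 to 0.92, limma adjusted p = 0.962). The change of Jun minus that of Junb was -0.48 (exact permutation test, two-sided, p = 0.5).

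Fos, the partner of Jun in the classical AP-1 dimer, stood at 8.67, 9.10 and 9.19 on the progesterone arrays, against 6.96, 8.48 and 9.16 on the oil arrays. The oil arrays spanned 2.20 and the progesterone arrays 0.52, and the groups overlapped because oil replicate 3 was as high as the progesterone arrays. The means were 8.99 ± 0.278 and 8.20 ± 1.13 (SD, n = 3 each), and the log2 change of 0.79 (95% interval -0.41 to 1.98) did not pass (limma adjusted p = 0.401). Its size rested on single oil arrays. It was 0.17 without oil replicate 1 and 1.27 without oil replicate 3. Fosl2, also called Fra-2 and the more slowly induced and longer-lived Fos relative, stood at 9.50, 9.82 and 9.62 on the progesterone arrays, against 9.46, 9.42 and 9.99 on the oil arrays. The groups overlapped fully, with a change of 0.02 (95% interval -0.38 to 0.43, limma adjusted p = 0.958), and the second Fosl2 probe set gave 0.00. The change of Fos exceeded that of Fosl2 by 0.76 (exact permutation test, two-sided, p = 0.2).

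Egr1 stood at 9.90, 9.80 and 9.77 on the progesterone arrays, against 9.43, 10.36 and 10.28 on the oil arrays. The progesterone arrays were alike (range 0.13) and lay between oil replicate 1 and the other oil arrays. The log2 change was -0.20 (95% interval -0.76 to 0.36, limma adjusted p = 0.679). It was -0.50 without oil replicate 1 (limma adjusted p = 0.056), -0.03 without oil replicate 2 (0.964) and -0.07 without oil replicate 3 (0.905). Atf3, a stress-induced member of the ATF and CREB family, stood at 6.46, 7.42 and 6.40 on the progesterone arrays, against 6.14, 6.67 and 6.55 on the oil arrays. Progesterone replicate 2 was the highest and the other 2 progesterone arrays lay within the oil range. The change was 0.31 (95% interval -0.37 to 0.98, limma adjusted p = 0.580).

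**Figure D4:**
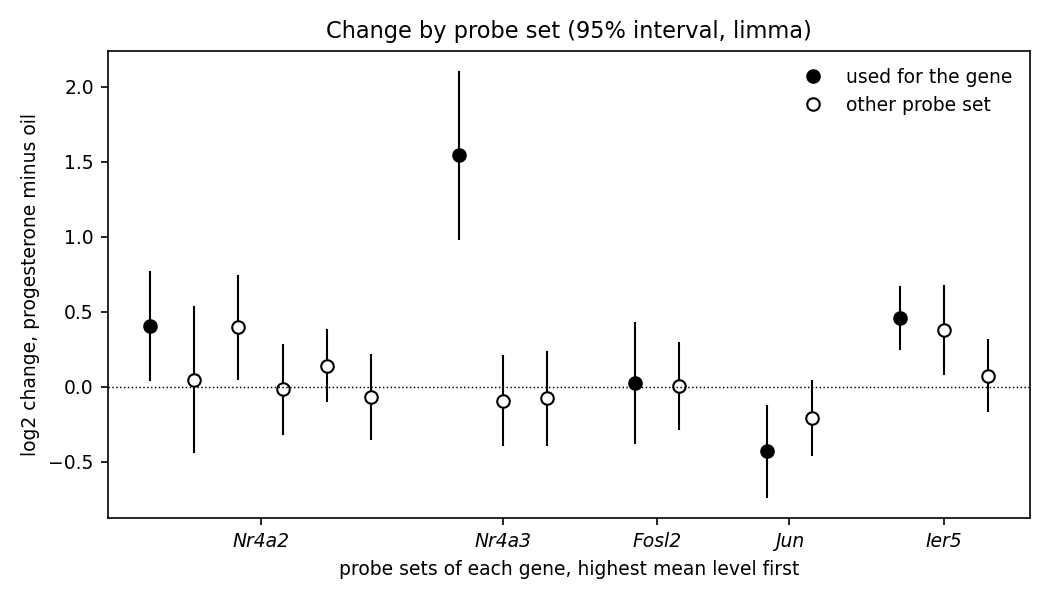
Log2 change, progesterone minus oil, with its 95% interval for each probe set of the 5 members with several, ordered within a gene by mean level and filled where the probe set stands for the gene. The 3 probe sets of Nr4a3 give 1.54, -0.09 and -0.08, and both Jun probe sets lie below 0.

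The members varied more between arrays of 1 group than most genes did. The residual SD of 6 of the 10 was above percentile 90 of all genes, and the median over members was 0.373, against 0.148 over all genes. The SD was larger among oil arrays than among progesterone arrays in 7 of 10 members, against 41.9% of all genes. Oil replicate 1 was the lowest oil array in 6 of 10 members and in 23 of 29 other immediate early genes, against 34.8% of all genes. Oil replicate 3 was the highest oil array in 5 of 10 members and in 19 of 29 other early genes, against 34.2% of all genes. Among progesterone arrays, replicate 3 was the lowest in 6 of 10 members, in 10 of 29 other early genes (34.5%) and in 34.7% of all genes. Progesterone replicate 1 was the lowest in 3 of 10 members, in 17 of 29 other early genes and in 32.8% of all genes.

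The macrophage markers differed between the same arrays. The log2 of their summed level (8 of 8 markers measured) was 10.79, 11.94 and 12.43 on the progesterone arrays, against 10.73, 11.37 and 12.07 on the oil arrays, and none of the 8 passed the test (0 also at an unadjusted limma p under 0.05). With the replicate block, 1 macrophage and 1 neutrophil marker passed as higher and 2 endothelial markers as lower, against 7.6% and 8.49% of all genes. The macrophage sum was higher after progesterone at each replicate number. It was lowest on oil replicate 1, as Fos, Junb, Nr4a1, Nr4a3, Egr1 and Atf3 were, and highest on progesterone replicate 3, as Fos and Ier5 were. The low on oil replicate 1 was not particular to macrophage markers. That array was the lowest oil array for 7 of 8 macrophage and 6 of 6 endothelial markers. The same held for 5 of 5 mast cell and 5 of 6 T and NK cell markers. For epithelial and uterine tissue markers the counts were 1 of 8 and 0 of 7. The sum of 6 measured neutrophil markers was 6.74, 12.92 and 13.35 on the progesterone arrays, against 6.68, 6.70 and 12.75 on the oil arrays. That of 5 liver markers was between 6.17 and 6.37 on 5 arrays and 9.40 on oil replicate 3. The neutrophil sum set arrays apart within both groups, the liver sum 1 oil array. That of 4 adipocyte markers was 8.00, 9.04 and 6.79 on the progesterone arrays, against 9.82, 10.01 and 8.94 on the oil arrays. Adipocyte sums were lower after progesterone at each replicate number, and of the 4 markers 0 passed without the replicate block (3 at an unadjusted limma p under 0.05) and 3 passed as lower with it. Of all genes, 26% were at an unadjusted limma p under 0.05 without the block and 8.49% passed as lower with it. Of 4 skeletal muscle markers only Acta1 passed, as higher (2.98-fold, limma adjusted p = 0.0149), while the changes of Ckm (-0.20), Myh4 (-0.04) and Mylpf (-0.27) were below 0 and did not pass. The part of these cell types in the members' values was not tested. Leaving out the 3 arrays with high S100a8 left 1 progesterone and 2 oil arrays, the lone progesterone array being assumed to vary like the oil arrays. The log2 change was then 2.14 for Nr4a3 (limma adjusted p = 0.151) and 0.47 for Ier5 (0.213), and 0 genes passed in all.

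**Figure D5:**
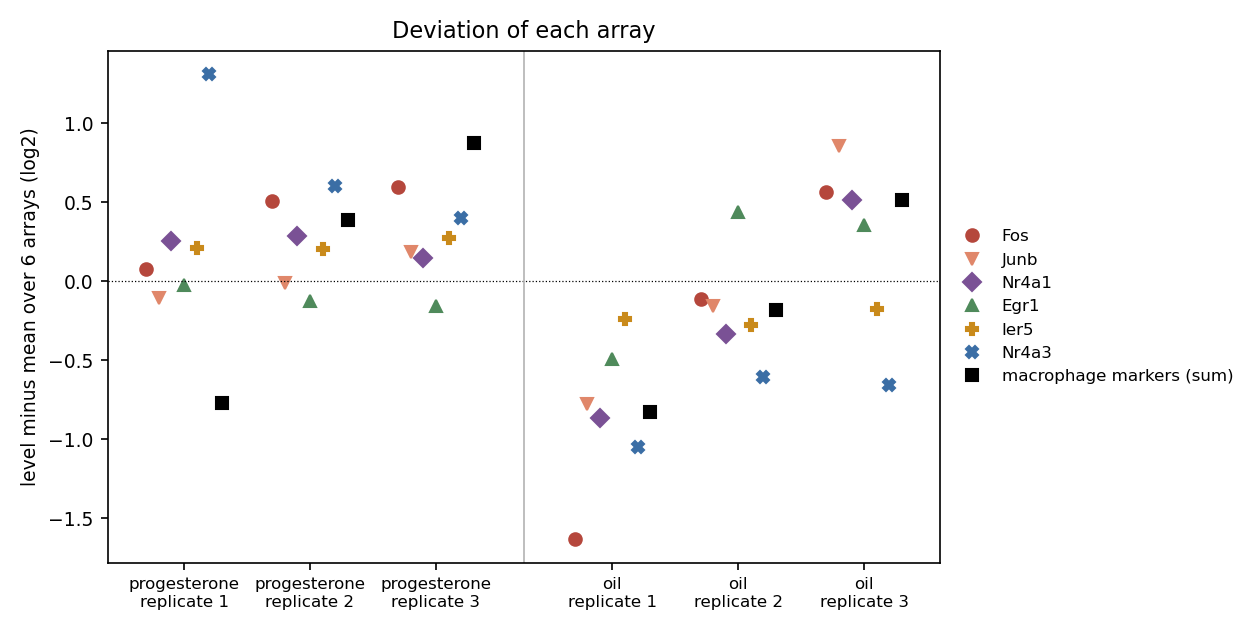
Level of 6 members and of the summed macrophage markers on each array, as the log2 difference from the mean over the 6 arrays, with progesterone arrays left and oil arrays right. Fos, Junb, Nr4a1, Nr4a3, Egr1 and the macrophage sum are lowest on oil replicate 1, and the groups do not overlap for Nr4a3 and Ier5.

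Same-numbered arrays were also compared. Ier5 was higher after progesterone by 0.45, 0.48 and 0.45 at replicates 1, 2 and 3, and Jun differed by -0.51, -0.37 and -0.41. Nr4a3 was higher by 2.36, 1.21 and 1.06. These 3 genes kept 1 direction at every number, as did Fos (1.71, 0.62 and 0.03) and Nr4a2 (0.24, 0.84 and 0.13). For Ier5, Jun, Nr4a3 and Nr4a2 this follows from groups that did not overlap, and it is no separate result. The groups did not overlap for 30.4% of all genes, and the full share that kept 1 direction was not counted. The differences of Nr4a1 were 1.12, 0.62 and -0.37, those of Egr1 0.47, -0.56 and -0.51, and those of Junb 0.67, 0.14 and -0.67, so these genes changed direction between numbers. So did Fosl2 (0.04, 0.40 and -0.37) and Atf3 (0.32, 0.75 and -0.15).

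None of the listed relatives of the members passed the test, against 11.7% of all genes. At an unadjusted limma p under 0.05 there were 26% of all genes. Of 12 other AP-1 and related bZIP genes, 0 rose and 0 fell, with 1 at an unadjusted limma p under 0.05 and a median log2 change of -0.02, and their changes lay between -0.22 and 0.28. Jdp2, a repressive Jun partner, had the largest change (0.28, limma adjusted p = 0.278). Fosb was dim, with 3.67, 3.81 and 3.79 on the progesterone arrays, against 3.34, 3.51 and 3.62 on the oil arrays (0.27, limma adjusted p = 0.160). Jund (0.20, adjusted p = 0.341) and Fosl1 (0.11, adjusted p = 0.717) did not pass in limma. Of 5 other Egr genes and Nab corepressors, which bind Egr proteins and repress them, 0 rose and 0 fell, with 0 at an unadjusted limma p under 0.05 and a median of 0.14. Egr2 changed by -0.15 (adjusted p = 0.859), Egr3 by 0.01 (0.952), Nab1 by 0.18 (0.425) and Nab2 by 0.14 (0.537), with limma adjusted p-values in the brackets. The probe sets of Egr3 disagreed. The second read 6.50, 6.28 and 5.48 on the progesterone arrays, against 4.71, 4.99 and 5.53 on the oil arrays (log2 change 1.01, limma adjusted p = 0.0797). Its groups overlapped at progesterone replicate 3 and oil replicate 3, and it did not pass. Of 3 Rxr genes, whose products pair with Nr4a1 and Nr4a2, 0 passed and 0 were at an unadjusted limma p under 0.05, with a median of -0.13 and Rxrb at -0.13 (limma adjusted p = 0.615).

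Among 29 other immediate early genes, 3 rose and 3 fell, against 5.92% and 5.83% of all genes, with a median log2 change of 0.22. Rhob, a small GTPase gene, stood at 11.73, 11.94 and 11.85 on the progesterone arrays, against 10.69, 10.36 and 10.63 on the oil arrays, and was 2.43-fold higher (limma adjusted p = 0.00212). Csrnp1, a nuclear factor gene, had 7.86, 7.96 and 7.99 on the progesterone arrays, against 6.88, 6.96 and 7.54 on the oil arrays, and was 1.75-fold higher (limma adjusted p = 0.0296), though its second probe set gave a log2 change of 0.07 (0.819). Trib1, a pseudokinase gene, was 1.59-fold higher (limma adjusted p = 0.0337).

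The 3 that fell were Ccn2, Btg2 and Pim1. Ccn2, a matrix protein gene known as a target of YAP, had 9.78, 10.11 and 9.72 on the progesterone arrays, against 10.54, 10.84 and 10.43 on the oil arrays, and was 1.66-fold lower (limma adjusted p = 0.0243). Btg2, an antiproliferative gene, had 9.55, 9.80 and 9.84 on the progesterone arrays, against 10.15, 10.54 and 10.51 on the oil arrays, and was 1.59-fold lower (limma adjusted p = 0.0254). Pim1, a kinase gene, was 1.56-fold lower (limma adjusted p = 0.0252). Rhob passed in all 6 fits that left out 1 array, while Csrnp1 passed in 1 of 6 and Ccn2 and Btg2 in 2 of 6 each. Among all 29, 8 rose without oil replicate 3 and 1 without oil replicate 1 or 2 or progesterone replicate 2 or 3. Over all 18193 genes, 718 rose without oil replicate 3. Without oil replicates 1 and 2 these were 457 and 379, and without progesterone replicates 2 and 3, 499 and 771. With the replicate block 7 rose and 4 fell, against 7.6% and 8.49% of all genes. Zfp36, which encodes an mRNA-destabilizing protein, was among those that rose (log2 change 0.63, limma adjusted p = 0.0731 without the block and 0.0107 with it). Ier2 (0.23, adjusted p = 0.281) and Dusp1 (0.35, adjusted p = 0.390) did not pass in limma. Ccn1 had the largest change of the 29, opposite in direction to Ccn2. It had 8.17, 8.78 and 8.04 on the progesterone arrays, against 6.29, 7.16 and 7.60 on the oil arrays. Its log2 change of 1.31 did not pass (limma adjusted p = 0.0518), though it passed as higher with the replicate block (0.0244). These values are from the brightest of 4 Ccn1 probe sets. The other probe sets of Ccn1, Trib1 and Pim1 were not compared. Fits that left out 1 array are not given for these 3 genes.

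Lists of upstream factors and of targets had counts of calls to be read beside the 5.92% of all genes that rose and the 5.83% that fell. Of 13 measured genes of the SRF, TCF and MAP kinase list, 1 rose and 0 fell, with a median of -0.02. Srf itself had 10.24, 10.24 and 9.82 on the progesterone arrays, against 9.56, 9.39 and 9.41 on the oil arrays, and was 1.57-fold higher (limma adjusted p = 0.0267), a call kept in 1 of the 6 fits that left out 1 array, and its second probe set did not pass (log2 change 0.23, limma adjusted p = 0.266). Of 15 measured CREB and protein kinase A genes, 1 rose and 0 fell, with a median of -0.07. This was Prkar2a, a regulatory subunit of protein kinase A, at 1.37-fold (limma adjusted p = 0.0350), lost in all 6 such fits. With the replicate block Prkar1b, another regulatory subunit, passed as lower (limma adjusted p = 0.0352) on the brightest of its 5 probe sets, and the others were not compared. Crem (-0.02, adjusted p = 0.942) and Creb1 (0.03, adjusted p = 0.931) did not pass in limma.

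Of 13 measured genes known as AP-1 targets, 1 rose and 1 fell, with a median of 0.18. The cytokine gene Il6 had 5.04, 5.20 and 4.22 on the progesterone arrays, against 3.36, 3.00 and 3.22 on the oil arrays, and rose (limma adjusted p = 0.0101, lost without oil replicate 2 at 0.0523). The oil values were at the level of the background controls, so no exact fold is given. The metalloproteinase gene Mmp10 had 4.83, 4.94 and 5.34 on the progesterone arrays, against 5.96, 6.26 and 6.00 on the oil arrays, and was 2.05-fold lower (limma adjusted p = 0.00947). With the replicate block 3 of these targets rose (Il6, Timp1 and Vegfa) and 1 fell (Mmp10), against 7.6% and 8.49% of all genes.

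Genes with the array pattern most like that of a member were found by the root mean square difference between log2 profiles centred over the 6 arrays. Any likeness of these genes to the member in direction or in array order follows from that choice and is no separate result. For Nr4a3 they were Ank (0.138), Pdzk1ip1 (0.143) and Nxpe3 (0.150), all of which rose. Ank, a pyrophosphate transporter gene, had 10.66, 10.34 and 10.06 on the progesterone arrays, against 8.69, 8.90 and 8.97 on the oil arrays. Like Nr4a3 it was highest on progesterone replicate 1 and lowest on oil replicate 1. For Fos they were Dusp2 (0.363), Clec4a2 (0.367) and Hrob (0.376), none of which passed. Dusp2, a MAP kinase phosphatase gene and itself an early gene, lay between 6.19 and 6.62 on the progesterone arrays, against 5.43, 5.96 and 6.91 on the oil arrays, so oil replicate 1 was lowest as for Fos. For Egr1 they were 0610040B10Rik (0.110), Nsun7 (0.111) and 2900055J20Rik (0.117), with means between 3.37 and 4.81 in either group, and none passed.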

How the data were processed

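The deposited values are log2 expression values from 6 one-colour Affymetrix arrays with 45101 probe sets, made by the authors with tools that the submitters' processing notes name as Partek 6.6 and RMA. Further settings are not given in the sources used here, and the number of arrays limits the precision. In the platform annotation 34945 probe sets had a single gene symbol, 932 several and 9160 none, and 64 were controls. RefSeq GRCm38.p6 names matched 34741 and changed 0.

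Groups came from the sample labels. The probe set with the highest mean stood for each of 18193 genes, with no filter. Progesterone was compared with oil in a two-sided limma fit without a block (version 3.58.1, R 4.3.3, lmFit then eBayes). P-values were adjusted over all genes by Benjamini-Hochberg, with calls at an adjusted p under 0.05. Probe sets of 1 gene other than the first were tested in a fit over all probe sets. Differences between members' changes were tested by exact permutation over arrays, where the smallest p the design allows is 0.1 for every pair. This test thus could not reach 0.05 for any pair, and no conclusion is drawn from it. The procedure was tested on simulated data.

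The members and lists were chosen with earlier results of these data known. Genes were named by a rule: all members, up to 4 called genes per list (or the largest change), 13 set relatives and early genes, up to 3 called markers per list and the 3 nearest profiles of Fos, Egr1 and Nr4a3. Trib1, Pim1, Ccn1, Timp1, Vegfa, Prkar1b, Ckm, Myh4, Mylpf, S100a8 and Alb were chosen for naming once their values were seen.

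Replicate numbers occur in both groups, and no label says what a number shares. For arrays of the same number, the deviations from the group mean correlated across genes at 0.523, 0.141 and 0.636. All exceed 0.1, the limit set for treating numbers as pairs, so the pairing comes from the data, not from the labels. The main fit was set with no covariates, so its calls take the arrays as unpaired, as does the permutation test. The pairs enter only through the replicate block, which is given as an alternative. The deviations of oil replicate 2 were closer to those of progesterone replicate 1 (0.322). Alternatives were quantile renormalization, centring on medians, an offset of 32, leaving out the lowest 50% of genes, the mean of probe sets, every probe set tested, a trended prior, an adjusted p of 0.01, the replicate block, each array left out and replicate 3 of both groups left out together. The fit without the 3 arrays with S100a8 above 11 was chosen after seeing the data. Protein sequences and the upstream sequence of Egr1 were not used here.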

Additional observations from a re-analysis of the deposited data

How the results depend on the processing

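Over 167 comparisons of a member with an alternative, 147 kept direction and side of the threshold, 8 lost the call, 3 gained it and 9 changed sign, the last all with adjusted p of at least 0.61. The count of members that rose was 2 and became 1 with the lowest 50% of genes left out, where Nr4a3 was not tested, 0 at an adjusted p of 0.01, 1 without replicate 3 of both groups, 0 without the 3 arrays with high S100a8, and 1 to 3 when 1 array was left out (3 without oil replicate 3, 1 without oil replicate 1 or 2 or progesterone replicate 2). The count that fell was 0 and became 1 (Jun) with the lowest 50% of genes left out and 1 with the replicate block. The block changed no other member's call. Over all genes, 1077 rose and 1060 fell. At an adjusted p of 0.01 these were 328 and 243, without replicate 3 of both groups 586 and 441, without the 3 arrays with high S100a8 0 and 0 (with 1 progesterone array left), and when 1 array was left out 379 to 848 and 278 to 907, both lowest without oil replicate 2. Il6 and Mmp10 were also not tested with the lowest 50% of genes left out. The causes were not tested.

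Signs changed as follows. With quantile renormalization, the log2 changes were -0.00111 for Fosl2 and -0.00889 for Creb1. Without the 3 arrays with high S100a8 they were 0.005 for Egr1, 0.08 for Rxrb, 0.045 for Crem, -0.02 for Creb1, 0.095 for Nsun7 and 0.195 for 2900055J20Rik. Without replicate 3 of both groups they were -0.005 for Egr3, 0.09 for Crem, -0.045 for Creb1 and 0.01 for 2900055J20Rik. When 1 array was left out, they ranged from -0.078 to 0.21 for Fosl2, -0.33 to 0.49 for Junb, -0.023 to 0.49 for Atf3, -0.022 to 0.24 for Fosl1, -0.42 to 0.23 for Egr2, -0.022 to 0.048 for Egr3, -0.14 to 0.058 for Crem, -0.08 to 0.12 for Creb1 and -0.365 to 0.025 for 2900055J20Rik. With 3 arrays a group, changes of the size of most members were within the spread between arrays, and genes near the background controls (up to 3.34), such as Il6 after oil and the third Nr4a3 probe set, give changes that the background may understate.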
